A study of Nicotiana tabacum with 30 samples.

Results

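Among the genes measured in tobacco leaves over a short drought series, 50 of 19599 were high at 1 h and back near or below their starting level at 8 h in both genotypes studied. They were chosen on the measured values. The mean of log2(FPKM + 1) at 1 h had to exceed that at 0 h by at least 1 in both genotypes, and the mean at 8 h could exceed that at 0 h by at most 0.5 in both. FPKM is a length-scaled share of a library's fragments, and the 19599 genes are those averaging 1 FPKM or more across all libraries. The rise at 1 h and the return at 8 h are therefore what defined these genes and carry no test here. What happened at 2 h and 4 h, in libraries the choice did not use beyond that mean, was tested. The limits at 1 h and 8 h still partly set the direction of the step from 2 h to 4 h.

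The plants were Nicotiana tabacum of 2 genotypes. M28 is a line that ethyl methanesulfonate, a chemical mutagen, produced from the cultivar K326, and the submitters describe it as more resistant to drought. K326, the parent, is a flue-cured cultivar. Leaves of each were sampled at 0, 1, 2, 4 and 8 h of drought, with 3 libraries per genotype and time and 30 libraries in all. Seedlings with 5 full leaves were watered fully before the treatment, which the protocol gives as natural drought and as simulated drought with 200 mM mannitol. The labels do not say which of these a library had, and their source field speaks of seeds although the tissue field says leaf. Libraries without drought at the later times were not analysed here, so time under drought and time of day cannot be told apart. M28 is 1 mutant line, and the sources used here do not list its mutations. The protocol speaks of replicates as pots of several seedlings, but no label ties a library to a pot, so the p-values rest on a spread among libraries that may be partly technical. In whole leaves, fewer cells of a type and less RNA per cell cannot be told apart.

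Plants under water deficit, osmotic stress or touch switch on an early wave of genes before the slower, lasting changes that go with abscisic acid. In well-studied plants such as Arabidopsis this wave holds many transcription factors, calcium-binding proteins and regulators that limit their own pathway, and their mRNAs are often short-lived. Tobacco is an allotetraploid, with gene copies inherited from a pair of ancestral species, so that reads of near-identical copies may have been split or misassigned in the deposited values. The table lists gene IDs without names, each made of a scaffold field followed by a number for the gene. None of the 35519 IDs was found in the RefSeq gene table of the assembly ASM71507v2. The roles of the 50 genes are therefore not given, and no tissue marker could be checked. For each comparison no more than 2 IDs per direction were picked for naming, and genes picked for one comparison also have values given for others.

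Totals of FPKM ran from 753424 to 801680 per library in M28 and from 801492 to 855427 in K326, and in each genotype the 8 h libraries had the lowest. Relative depth, read from the steps between low values, was 0.479 in M28 8 h replicate 3 and ran from 0.889 to 1.253 elsewhere, and the absolute depth is unknown. Of the 1500 values of the 50 genes, 51 were listed at 0, spread over 12 genes, and 9 of them lay in M28 8 h replicate 3. Without that library the rule found 51 genes, of which 47 were among the 50.

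A rise of at least 1 at 1 h was seen for 396 genes in M28 (2.02%) and 536 genes in K326 (2.73%), and for 250 genes (1.28% of those tested) in both. Of these 250 genes, 175 were still above 0 h by more than 0.5 at 8 h in both genotypes, 25 in 1 of the genotypes, and 50 in neither. The limits cut through a continuous range. The lowest rises among the members were 1.01 and 1.01, and the highest among genes that met the 8 h limit but missed the 1 h limit were 0.99 and 0.98. At 8 h the highest changes among the members were 0.49 and 0.46, and the lowest among genes just outside were 0.52 and 0.56.

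The 50 genes spanned low and high expression. At 0 h the mean stayed under 5 FPKM in both genotypes for 23 of them, lay from 5 to 50 FPKM in the higher genotype for 18, and reached at least 50 FPKM there for 9. At 1 h the group means ran from 1.64 to 534.8 FPKM in M28 and from 2.12 to 677.8 FPKM in K326, with medians of 17.1 and 19.1 FPKM. Means of 9 genes stood at 100 FPKM or more in both genotypes at that time.

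**Figure D1:**
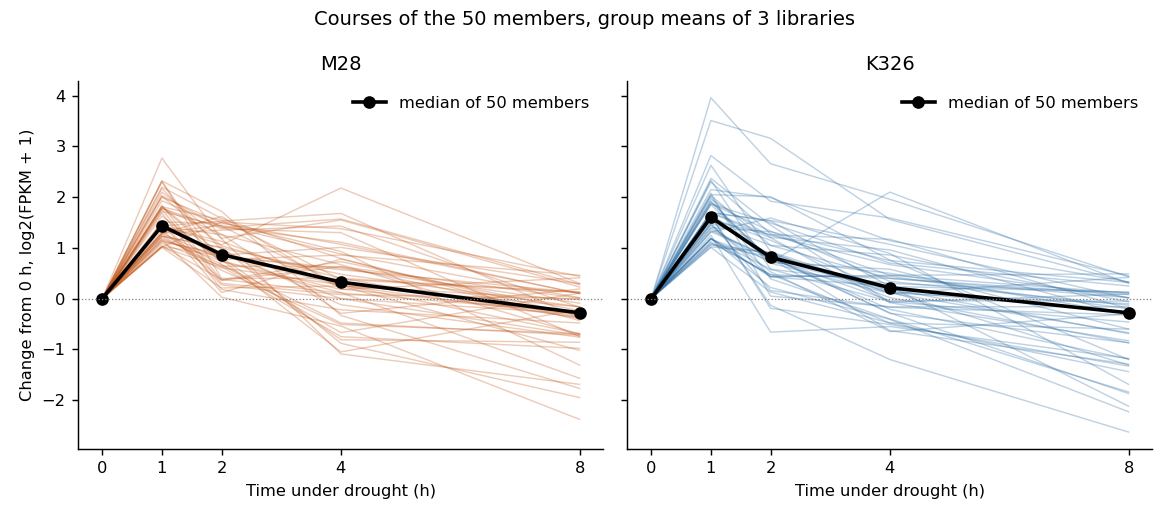
Change of log2(FPKM + 1) from 0 h (vertical axis) against time under drought in hours, for M28 (left) and K326 (right). Thin lines are the 50 members as means of 3 libraries and the black line is their median, which stands at 1.44 in M28 and 1.61 in K326 at 1 h and at -0.28 in both at 8 h.

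The courses were alike in outline, which the rule partly set through its limits at 1 h and 8 h in both genotypes. In M28 the median changes from the 0 h level at 1, 2, 4 and 8 h were 1.44, 0.87, 0.32 and -0.28 on the log2(FPKM + 1) scale, where a low gene's change comes out too small. K326 had medians of 1.61, 0.82, 0.21 and -0.28 at the same times. Over all tested genes the median change lay between -0.02 and 0.12 in M28 and between 0.03 and 0.21 in K326. The rise at 1 h ran from 1.01 to 2.77 in M28 and from 1.01 to 3.96 in K326, and it was the larger one in M28 for 20 genes and in K326 for 30. For 45 of the 50 genes every 1 h library lay above every 0 h library in both genotypes. The same held for 10.5% of all tested genes, and since the members were chosen on this contrast the count only describes them.

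Ranked by the smaller of the rises in the genotypes, among members with at least 5 FPKM at 1 h in both, a pair of genes led. The first, Nitab4.5_0000681g0080, had 3.95, 2.25 and 3.31 FPKM in M28 at 0 h, 21.4, 23.2 and 11.5 FPKM at 1 h, 14.7, 9.57 and 10.02 FPKM at 2 h, 5.20, 12.8 and 3.15 FPKM at 4 h, and 2.40, 2.39 and 1.45 FPKM at 8 h. In K326 it had 3.62, 4.20 and 3.13 FPKM at 0 h, 14.3, 17.5 and 29.5 FPKM at 1 h, 20.7, 16.5 and 15.5 FPKM at 2 h, 12.4, 7.76 and 8.00 FPKM at 4 h, and 5.31, 3.53 and 5.85 FPKM at 8 h. The 0 h and 1 h libraries did not overlap in either genotype, and the log2 rise was 2.20 in M28 and 2.15 in K326. At 2 h the gene held 71.6% of its log2 rise in M28 and 92.8% in K326.

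Nitab4.5_0005052g0030 started lower, with 1.47 ± 0.213 FPKM in M28 at 0 h and 0.918 ± 0.136 FPKM in K326 (SD, n = 3 each). It reached 13.6, 11.9 and 5.16 FPKM in M28 at 1 h, a log2 rise of 2.10, and 5.60, 7.04 and 14.9 FPKM in K326, a log2 rise of 2.30. Its 4 h libraries parted: M28 had 4.15, 13.6 and 3.92 FPKM, against 2.33, 0.838 and 2.00 FPKM in K326, with no overlap (log2 difference 1.44, SE 0.353, limma adjusted p = 0.00252). The high M28 library, replicate 2, was also the one with the highest mean level of the 50 genes at 4 h in M28.

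For the 50 genes, replicates differed more at 1 h than at other times. The 1 h libraries helped to choose these genes, and the log2(FPKM + 1) scale narrows the spread of low values. The comparison therefore only describes the members. The within-group SD of log2 values had a median over the 50 genes of 0.370 in M28 and 0.449 in K326 at 1 h, against 0.178 and 0.197 at 2 h. The next highest medians of the 50 genes were 0.311 in M28, at 8 h, and 0.259 in K326, at 0 h. Over all tested genes the medians at 1 h were 0.141 in M28 and 0.170 in K326, and M28 was higher at 8 h, at 0.150. The mean log2 level of the 50 genes was 4.79, 4.54 and 4.20 in the M28 1 h libraries 1, 2 and 3, and 4.70, 4.19 and 4.90 in those of K326. M28 replicate 3 and K326 replicate 2 were thus the lowest at the peak. When M28 1 h replicate 3 was left out the rule found 68 genes, and all 50 were among them. The 3 libraries of 2 h lay close together, between 3.82 and 3.92 in M28 and between 3.80 and 3.82 in K326.

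**Figure D2:**
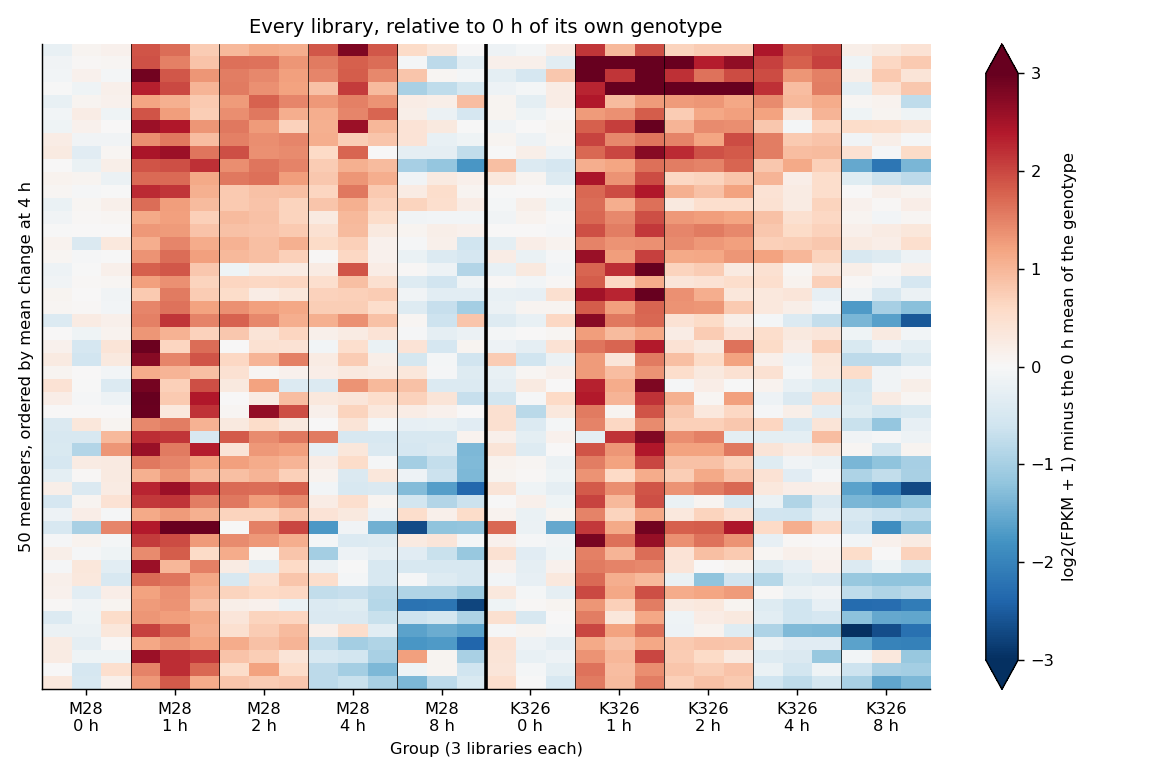
Values of the 50 members (rows) in each of the 30 libraries (columns, M28 left and K326 right, by time), as log2(FPKM + 1) minus the 0 h mean of the same genotype. Red is above and blue below 0 h, and members are ordered by their mean change at 4 h, so that the few still high at 4 h stand at the top and those already below 0 h at the bottom.

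After the peak the genes returned at different speeds. The highest group mean fell on 1 h for 44 of 50 genes in M28 and 48 in K326, on 2 h for 3 and 1, and on 4 h for 3 and 1. At 2 h a median of 60.3% of the log2 rise was left in M28 and 56.0% in K326, and less than 50% was left for 17 genes in M28 and 21 in K326. Already at 2 h, 5 genes were at most 0.5 above the 0 h level in both genotypes. Most tested genes met this limit in each genotype, with upper quartiles of 0.18 in M28 and 0.33 in K326. At that time 14 members were still at least 1 above 0 h in both, against 1.32% of all tested genes. These last comparisons share the 0 h libraries with the choice of the genes and are not tested. For the 175 genes that stayed high the median share of the rise left at 2 h was 82.9% in M28 and 101.03% in K326. This difference between the sets was not tested either, because both sets were chosen on levels at 0, 1 and 8 h.

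By 4 h the level was at most 0.5 above 0 h for 29 genes in M28 and 35 in K326, and for 26 in both. Most tested genes met this limit in each genotype, as their upper quartile was 0.28 in M28 and 0.37 in K326. A level at least 1 above 0 h was left for 5 members in both genotypes, against 2.80% of all tested genes. The mean was below 0 h for 15 genes in M28 and 18 in K326, where the median change of all tested genes was 0.05 and 0.10. At 8 h 34 genes in M28 and 33 in K326 were below their 0 h level. The rule capped this change at 0.5 and so partly set these counts. Over all tested genes the median change at 8 h was 0.12 in M28 and 0.21 in K326. A fall of at least 1 below 0 h was seen in both genotypes for 7 members and for 3.94% of all tested genes. Any gene with such a fall met the 8 h limit, so the choice favoured these genes and the count only describes the members. All 7 came from the 250 genes that rose by at least 1 at 1 h in both genotypes. Within 0.5 of 0 h in both lay 27 members.

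By the smaller of the falls in the genotypes at 8 h, Nitab4.5_0000722g0020 ranked first among members with at least 5 FPKM at 0 h. It had 10.6, 9.62 and 10.98 FPKM in M28 at 0 h, 26.6, 27.9 and 19.9 FPKM at 1 h, 11.9, 11.4 and 8.88 FPKM at 2 h, 7.60, 7.88 and 5.27 FPKM at 4 h, and 1.46, 1.495 and 0.692 FPKM at 8 h. In K326 it had 7.46, 8.502 and 8.78 FPKM at 0 h, 22.2, 14.1 and 25.9 FPKM at 1 h, 10.2, 10.4 and 8.80 FPKM at 2 h, 6.05, 5.08 and 6.78 FPKM at 4 h, and 0.869, 0.898 and 1.14 FPKM at 8 h. The peak was over by 2 h, and the 8 h libraries lay below those of every other time in both genotypes (log2 change from 0 h -2.38 in M28 and -2.23 in K326). Nitab4.5_0009795g0010, which ranked next, was an abundant gene. Its group means in M28 were 165 ± 28.7 FPKM at 0 h, 386 ± 23.7 FPKM at 1 h, 331 ± 28.1 FPKM at 2 h, 88.8 ± 9.10 FPKM at 4 h and 42.7 ± 10.7 FPKM at 8 h, and in K326 they were 292.5 ± 79.8, 599 ± 62.3, 507 ± 14.2, 236 ± 15.6 and 78.1 ± 13.4 FPKM (SD, n = 3 each). Its log2 change at 8 h was -1.95 in M28 and -1.87 in K326.

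The step from 2 h to 4 h was the first tested comparison. In M28, 16 of the 50 genes fell and 1 rose, against 3.61% and 5.48% of all tested genes, and 33 were not called at an adjusted p below 0.05. In K326, 18 fell and 1 rose, against 5.94% and 6.96% of all tested genes, and 31 were not called. In both genotypes 12 genes fell, against 2.05% of all tested genes. The rule did not use the 2 h and 4 h levels, but it required each member to be lower at 8 h than at 1 h by at least 0.5, so the direction of this step is partly set by the choice and these counts describe when the fall occurred. The median log2 difference of the 50 genes was -0.54 in M28 and -0.67 in K326, and that of all tested genes was 0.07 and -0.01. These calls are from limma with Benjamini-Hochberg adjustment over all tested genes, with 1 spread per gene shared by all 10 groups. When only the 12 libraries of 2 h and 4 h were fitted, 20 members fell in M28, against 4.88% of all tested genes. In K326 24 fell in that fit, against 8.45%. Without M28 2 h replicate 2 the genes that fell in M28 were 10, and without K326 2 h replicate 2 or K326 4 h replicate 2 those that fell in K326 were 12.

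**Figure D3:**
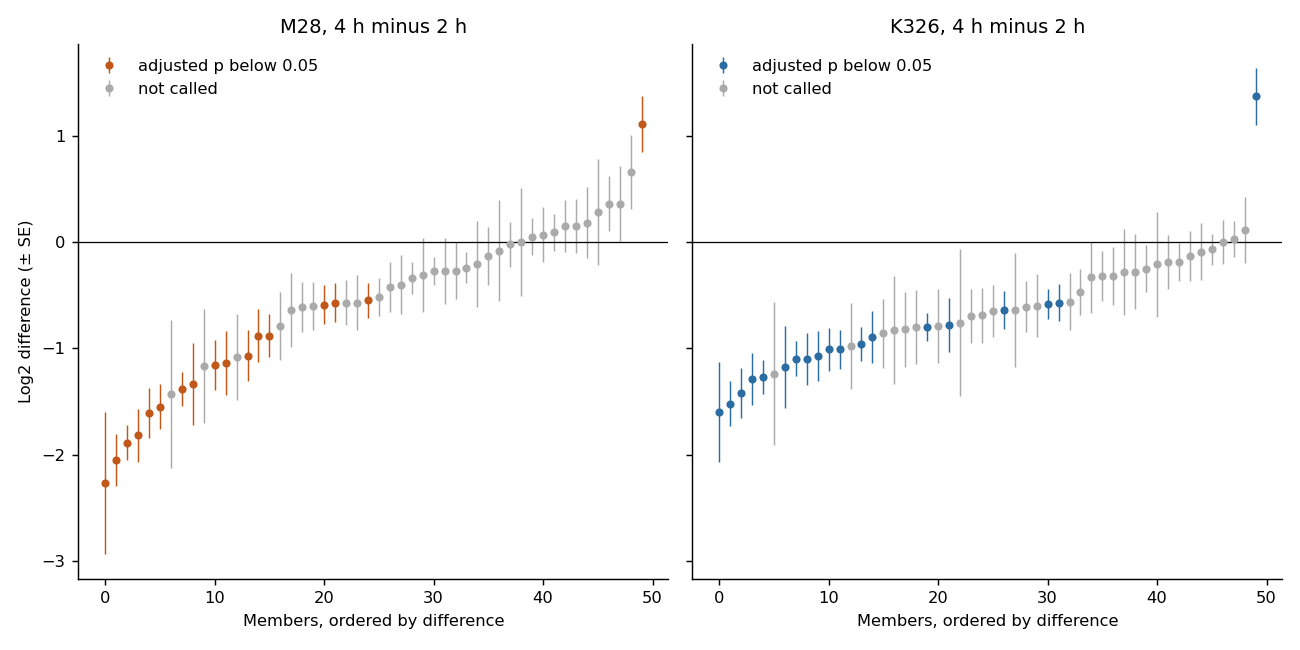
Log2 difference of 4 h minus 2 h (vertical axis, bars are standard errors from limma) for the 50 members in M28 (left) and K326 (right), ordered by size within each panel. Coloured points passed an adjusted p of 0.05, 17 in M28 and 19 in K326, and all but 1 of them in each panel lie below 0.

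The steepest falls passed the test in both genotypes or in 1 of them. Nitab4.5_0001480g0110 had 21.8, 16.8 and 17.0 FPKM in M28 at 4 h, against 61.9, 57.5 and 49.1 FPKM at 2 h (log2 difference -1.55, SE 0.211, limma adjusted p = 1.25e-05). In K326 it had 10.9, 13.5 and 13.5 FPKM at 4 h, against 36.2, 42.8 and 35.4 FPKM at 2 h (log2 difference -1.52, SE 0.211, adjusted p = 1.32e-05). The libraries of both times were well apart in each genotype, and at 4 h the gene stood near its 0 h level, with means of 18.5 FPKM in M28 and 12.6 FPKM in K326, against 22.7 and 13.3 FPKM at 0 h.

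Nitab4.5_0009795g0020 fell in both genotypes. It had 10.8, 7.91 and 8.29 FPKM in M28 at 4 h, against 39.7, 38.6 and 42.0 FPKM at 2 h (log2 difference -2.05, SE 0.242, limma adjusted p = 1.51e-06). K326 had 38.3, 35.2 and 34.6 FPKM at 4 h, against 78.6, 89.6 and 102 FPKM at 2 h (log2 difference -1.29, SE 0.242, adjusted p = 0.000552). Every M28 library lay below every K326 library at both times, and the difference between the steps did not pass (M28 minus K326 -0.76, SE 0.342, adjusted p = 0.459).

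Nitab4.5_0000057g0080, the gene with the largest rise of any member in M28 at 1 h (2.77), also had the largest drop there after 2 h. Its M28 libraries had 1.20, 5.76 and 1.71 FPKM at 4 h, against 6.28, 19.99 and 28.4 FPKM at 2 h (log2 difference -2.27, SE 0.671, limma adjusted p = 0.0325). The lowest 2 h library lay only just above the highest 4 h library. The call was lost with a pseudocount of 0.1 FPKM (adjusted p = 0.0612), without the filter on low values (0.0561), and when M28 2 h replicate 2 (0.122), M28 2 h replicate 3 (0.152), M28 4 h replicate 1 (0.140) or M28 4 h replicate 3 (0.113) was left out. At 0 h its libraries were also uneven, with 4.21, 2.71 and 19.2 FPKM in M28 and 18.9, 4.33 and 1.09 FPKM in K326.

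Nitab4.5_0002255g0010 was the steepest in K326, with 5.61, 1.75 and 3.19 FPKM at 4 h, against 12.9, 10.7 and 11.99 FPKM at 2 h (log2 difference -1.60, SE 0.473, limma adjusted p = 0.0245). The adjusted p lay between 0.0544 and 0.128 when any of the 3 K326 2 h libraries or K326 4 h replicate 2 or 3 was left out. In M28 it stood at 18.9, 45.4 and 20.1 FPKM at 4 h and 31.1, 26.9 and 24.3 FPKM at 2 h, which overlap (log2 difference -0.08, SE 0.473, adjusted p = 0.951). The difference between the genotypes' steps did not pass (M28 minus K326 1.52, SE 0.669, adjusted p = 0.441).

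One member rose again after 2 h in both genotypes. Nitab4.5_0000080g0160 had 16.4, 20.5 and 21.0 FPKM in M28 at 0 h, 73.5, 63.3 and 33.4 FPKM at 1 h, 38.9, 43.2 and 41.7 FPKM at 2 h, 72.6, 140.2 and 72.2 FPKM at 4 h, and 29.0, 24.4 and 19.3 FPKM at 8 h. K326 had 33.9, 36.2 and 44.2 FPKM at 0 h, 169.8, 75.5 and 148 FPKM at 1 h, 60.6, 64.6 and 64.4 FPKM at 2 h, 207, 143 and 153 FPKM at 4 h, and 42.6, 47.0 and 51.4 FPKM at 8 h. The group means thus had maxima at 1 h and at 4 h, and every 4 h library lay above every 2 h library. The step from 2 h to 4 h was 1.11 in M28 (SE 0.265, limma adjusted p = 0.00699) and 1.37 in K326 (SE 0.265, adjusted p = 0.000747). Without M28 4 h replicate 2, the library at 140.2 FPKM, the step in M28 was 0.80 with an adjusted p of 0.0719.

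**Figure D4:**
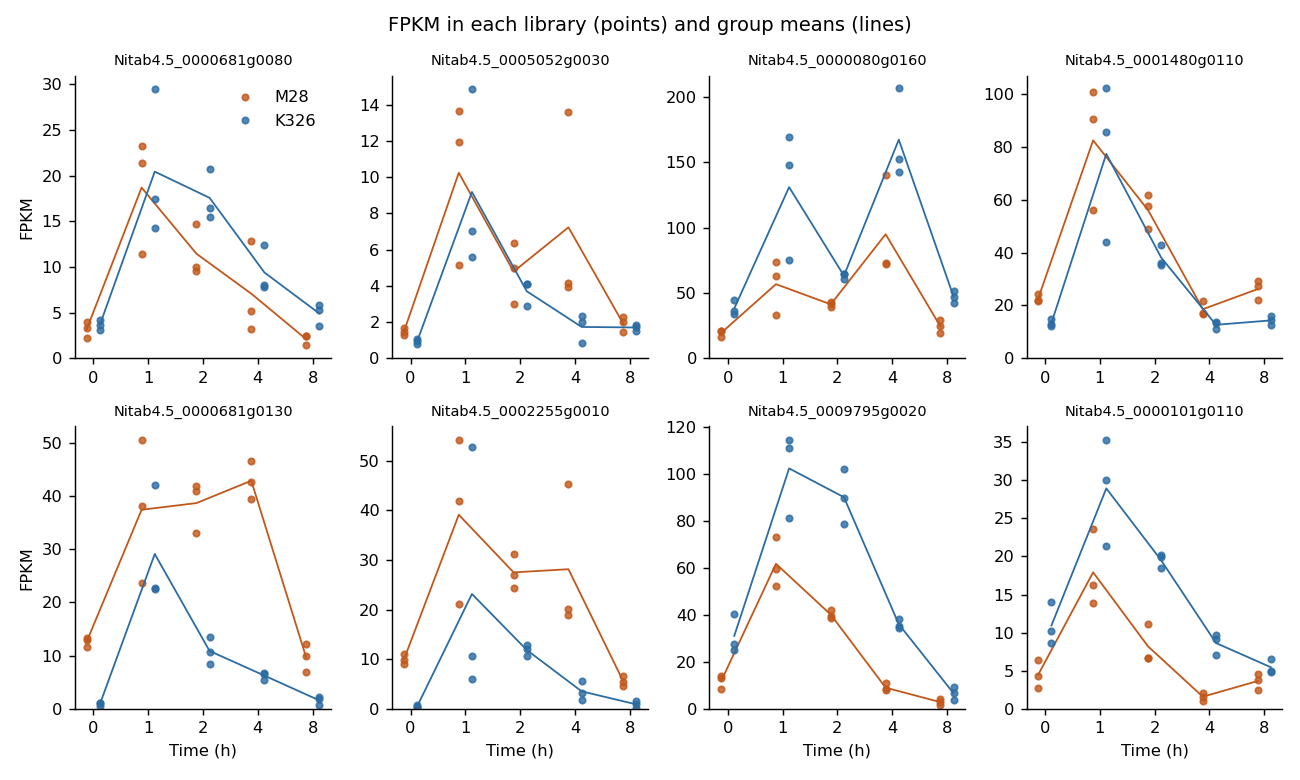
FPKM (vertical axis, from 0) at each time in hours (times evenly spaced, not to scale) for 8 of the named members. Points are single libraries, 3 per genotype and time, and lines join the group means, with M28 in orange and K326 in blue. Nitab4.5_0000080g0160 shows its second peak at 4 h. Nitab4.5_0000681g0130 keeps means between 37.4 and 42.9 FPKM in M28 from 1 h to 4 h, while its means decline in K326. For this gene the step from 2 h to 4 h was not called in K326 (limma adjusted p = 0.0745). Nor was the difference between the genotypes' steps (M28 minus K326 0.84, SE 0.36, adjusted p = 0.432).

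An interaction term tested if the genotypes differed in the step to 4 h. None of the 50 genes passed at an adjusted p below 0.05 in limma, and 0.0204% and 0.138% of all tested genes passed with a higher and a lower response in M28. At an unadjusted p below 0.05 there were 9 members, against 10.2% of all tested genes. The differences of the log2 steps, M28 minus K326, ran from -1.02 to 1.52 with a median of 0.05. When only the 12 libraries of 2 h and 4 h were fitted, 2 members passed with a lower response in M28, against 0.393% of all tested genes, namely Nitab4.5_0009795g0010 (-0.78, SE 0.112, adjusted p = 0.00798) and Nitab4.5_0009795g0020 (-0.76, SE 0.155, adjusted p = 0.0457). With all libraries their SEs were 0.233 and 0.342 and their adjusted p values 0.212 and 0.459. That fit shares 1 spread per gene over all 10 groups, including those of 1 h, where the median spread of the members was largest.

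The genotypes were then compared at 2 h and at 4 h. At 2 h, 5 of the 50 genes were higher and 7 lower in M28 than in K326, where 19.7% and 7.56% of all tested genes were higher and lower. At 4 h, 12 were higher and 7 lower, where 28.4% and 8.19% of all tested genes were. Called at both times were 5 members higher and 6 lower in M28, against 14.9% and 4.67% of all tested genes. The 7 genes lower at 2 h became 4 when M28 2 h replicate 2 or 3, or K326 2 h replicate 1 or 2, was left out. The split depended on scaling, and so did its relation to the background. At 4 h 24% of the members and 28.4% of all tested genes were higher in M28 with the deposited values, whereas after median-of-ratios scaling it was 18% of the members and 12.2% of all genes, and after quantile normalization 20% and 14.4%. With equal totals it was 34% of the members and 40.1% of all genes. No test compared these shares. After median-of-ratios scaling, quantile normalization and rescaling to equal totals, the members called higher and lower were 4 and 8, 4 and 7, and 9 and 5 at 2 h, and 9 and 9, 10 and 8, and 17 and 6 at 4 h. Of the calls over all tested genes at 2 h, 72.2% were higher in M28 with the deposited values, and 47.8%, 54.2% and 83.2% under these scalings in the same order. At 4 h the shares of calls were 77.6%, 45.3%, 53.7% and 86.6%, and for the step to 4 h in M28 they were 60.3%, 40.9%, 44.9% and 63.8%. Over all tested genes the median difference of M28 minus K326 at 4 h was 0.17 as deposited, 0.01 and 0.02 under the first pair of scalings, and 0.26 with equal totals. The median over the 50 genes was 0.04 at 2 h and 0.18 at 4 h with the deposited values.

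**Figure D5:**
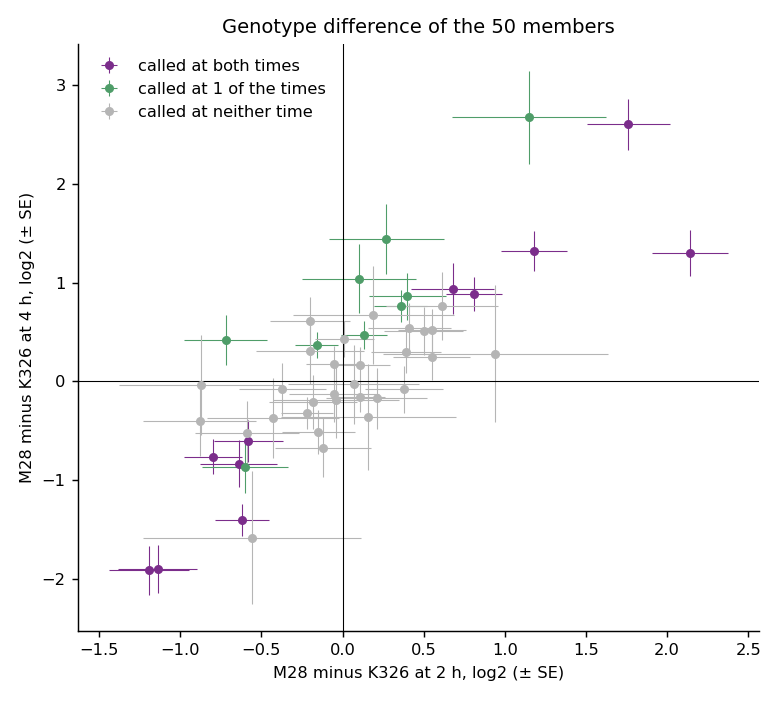
Log2 difference of M28 minus K326 at 4 h (vertical axis) against that at 2 h (horizontal axis) for the 50 members, with standard errors from limma. The times share no library, and the 11 members called at both times lie in the upper right (5 genes) or the lower left (6 genes).

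Nitab4.5_0000130g0140 had the largest excess in M28 at 2 h. It had 156, 124 and 139 FPKM in M28, against 30.9, 37.5 and 25.3 FPKM in K326 (log2 difference 2.14, SE 0.236, limma adjusted p = 2.51e-07). The genotypes were closer at 1 h, with 225, 228 and 149 FPKM in M28 and 148, 70.1 and 138 FPKM in K326. In K326 the gene was back near its 0 h mean of 35.5 FPKM by 2 h, and in M28 it was at 62.3 ± 10.1 FPKM at 4 h, against 52.9 ± 16.6 FPKM at 0 h (SD, n = 3 each). The difference at 4 h was 1.30 (SE 0.236, adjusted p = 0.000147).

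Nitab4.5_0000681g0130 was higher in M28 at 2 h and 4 h. At 4 h it had 39.4, 46.6 and 42.6 FPKM in M28, against 6.73, 5.38 and 6.61 FPKM in K326 (log2 difference 2.60, SE 0.255, limma adjusted p = 2.88e-08). At 2 h it had 42.0, 41.0 and 33.1 FPKM in M28, against 13.6, 8.40 and 10.6 FPKM in K326 (1.76 on the log2 scale, SE 0.255, adjusted p = 1.26e-05). At 0 h it also stood apart, at 11.7, 13.0 and 13.3 FPKM in M28 and 1.07, 1.06 and 0.484 FPKM in K326, while the 1 h libraries overlapped at 50.6, 38.1 and 23.6 FPKM in M28 and 22.7, 22.5 and 42.1 FPKM in K326. Its log2 rise at 1 h was 1.43 in M28 and 3.96 in K326, the largest rise of any member in K326.

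Nitab4.5_0002255g0010 had a like pattern. At 4 h it stood at 18.9, 45.4 and 20.1 FPKM in M28, against 5.61, 1.75 and 3.19 FPKM in K326 (log2 difference 2.67, SE 0.473, limma adjusted p = 0.000111). The difference at 2 h was 1.15 (SE 0.473, adjusted p = 0.0736). At 0 h it had 9.74, 8.98 and 11.04 FPKM in M28, against 0.284, 0.370 and 0.683 FPKM in K326. At 1 h its libraries spread from 21.2 to 54.2 FPKM in M28 and from 5.98 to 52.8 FPKM in K326. These were the only 2 members at least 1 higher in M28 at 0 h on the log2 scale, and 3 members were at least 1 lower, against 3.86% and 1.73% of all tested genes. Over the 30 libraries the log2 values of Nitab4.5_0000681g0130 and Nitab4.5_0002255g0010 had a Pearson correlation of 0.95, and no other member was more like the first. The median over the 1225 pairs of members was 0.67, and all pairs share the libraries and the course that chose them.

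Among genes lower in M28, Nitab4.5_0000101g0110 had 2.08, 1.60 and 1.08 FPKM in M28 at 4 h, against 9.22, 7.04 and 9.65 FPKM in K326 (log2 difference -1.91, SE 0.247, limma adjusted p = 1.98e-06). At 2 h it had 6.69, 11.2 and 6.73 FPKM in M28, against 19.9, 18.5 and 20.2 FPKM in K326 (-1.19 on the log2 scale, SE 0.247, adjusted p = 0.000797). The libraries did not overlap at either time. Nitab4.5_0009795g0020, with its libraries given above, was also lower in M28, with a log2 difference of -1.90 at 4 h (SE 0.242, adjusted p = 1.61e-06) and -1.14 at 2 h (SE 0.242, adjusted p = 0.00099). Before drought both genes were already lower in M28, without overlap and not tested. Nitab4.5_0000101g0110 had 4.355, 2.70 and 6.43 FPKM in M28 at 0 h, against 14.0, 10.2 and 8.58 FPKM in K326 (log2 difference -1.15). Nitab4.5_0009795g0020 had 13.1, 8.30 and 13.9 FPKM, against 40.3, 27.6 and 25.2 FPKM (log2 difference -1.33).

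The levels at 1 h belong to the values that chose the genes and are given without a test, for members whose 1 h libraries do not overlap between the genotypes. Of the members, 3 were at least 1 higher and 3 at least 1 lower in M28 than in K326 at 1 h, where 2.81% and 1.16% of all tested genes were. Nitab4.5_0001704g0090 had 491, 506 and 608 FPKM in M28, against 199, 214 and 296 FPKM in K326. Nitab4.5_0000257g0150 had 25.2, 10.01 and 13.6 FPKM in M28, against 5.99, 2.68 and 7.48 FPKM in K326. The log2 differences were 1.19 and 1.42. In the other direction, Nitab4.5_0000652g0050 had 4.36, 7.33 and 4.24 FPKM in M28, against 45.7, 19.9 and 22.1 FPKM in K326 (log2 difference -2.20). Nitab4.5_0000757g0070 had 1.15, 2.67 and 1.11 FPKM in M28, against 6.94, 5.74 and 10.8 FPKM in K326 (log2 difference -1.75). Nitab4.5_0000652g0050 was also lower in M28 before drought, at 0.906 ± 0.438 FPKM, against 6.38 ± 2.92 FPKM in K326 (SD, n = 3 each), whereas Nitab4.5_0000757g0070 started near 0 in both, with 0.240 ± 0.0737 FPKM in M28 and 0.429 ± 0.435 FPKM in K326.

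The IDs place the 50 genes on 45 scaffolds. A scaffold field was shared with another member by 10 of the 50, and 2.21% of the other tested genes lie on a scaffold field that holds a member. Only Nitab4.5_0009795g0010 and Nitab4.5_0009795g0020 were neighbours in the gene numbers of the table, and 0.189% of the other tested genes were neighbours of a member. Whether the gene number follows the position on the scaffold was not tested. The log2 values of this pair had a Pearson correlation of 0.98 over the 30 libraries, the highest of all 1225 pairs. The first was the more abundant, at 599 ± 62.3 FPKM in K326 at 1 h, against 102 ± 18.3 FPKM for the second (SD, n = 3 each). Both were higher at 1 h than at 0 h, fell from 2 h to 4 h in both genotypes, and ended below their 0 h level. They were lower in M28 at 2 h and at 4 h, and already at 0 h (log2 differences -0.80 and -1.33, not tested). Whether reads of one could be counted for the other was not tested.

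Of the 50 genes, 21 were called in none of the 5 tested comparisons, against 49.2% of all tested genes.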

How the data were processed

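Leaf RNA libraries (30, in 10 groups of genotype and time) were grouped and numbered by the sample labels. The deposited FPKM values fill a single table with a column for each library. Its title gives the unit as FPKM. The values alone cannot tell FPKM from TPM, another length-scaled unit, computed over a larger set of genes. The submitters' processing notes list FastQC, Trimmomatic, HISAT2 and featureCounts. The roles and versions of these tools, the genome build and how FPKM was made stay unknown, since the sources used here do not give them.

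Deposited values were used without further scaling and put on a log2 scale after adding 1 FPKM (the pseudocount). One limma fit (limma 3.58.1, R 4.3.3) of all 10 groups, with a mean-variance trend, tested 5 contrasts of the 2 h and 4 h groups over 19599 genes, with Benjamini-Hochberg adjustment within each contrast and a call at an adjusted p below 0.05. The fit was tested on simulated data. The members, the comparisons and the named genes' rule were chosen with earlier results of these data known. In each tested contrast the rule took the first 2 members per direction by log2 difference, among those called with a difference of at least 1, 5 FPKM or more in whichever group was higher, and libraries that do not overlap. Without a test it took 2 each for the rise at 1 h, the fall at 8 h and each direction of the genotype difference at 1 h, by size with the same 5 FPKM floor, ranking rises and falls by the smaller of the genotypes' changes and taking only genotype differences without overlap of the 1 h libraries. Relative depth came from the steps between low values of 3945 genes, where 94.5% of 435 library pairs lay within 0.005 (log2) of one set of depths. The alternatives were other scalings, pseudocount and filter, no trend, a replicate block, the 12 libraries of 2 h and 4 h alone, and leaving out single libraries. Lists by gene symbol could not be matched to the IDs and were not used.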

Additional observations from a re-analysis of the deposited data

How the results depend on the processing

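The rule found 50 genes with the deposited values. Across the other scalings, the pseudocount of 0.1 FPKM, no filter on low values and the median of 3 libraries it found between 47 and 66 genes, of which 42 to 50 were among the 50. Leaving out single libraries of 0, 1 or 8 h gave 44 to 68 genes. In M28 from 2 h to 4 h, leaving out single libraries gave 10 to 16 members lower and 0 to 1 higher, and in K326 12 to 16 lower and 1 higher. Between genotypes at 2 h it gave 4 to 5 higher and 4 to 5 lower, and at 4 h 8 to 13 higher and 5 to 10 lower. At 2 h the 7 members lower became 4 without M28 2 h replicate 2 or 3, or without K326 2 h replicate 1 or 2. The 5 members higher in M28 at 2 h became 9 with equal FPKM totals and 10 with only the 12 libraries of 2 h and 4 h, and that fit gave 2 members with a lower response in M28, against 0. The causes were not tested. Of 210 refits of named genes none changed direction and 12 lost the call, for Nitab4.5_0002255g0010, Nitab4.5_0000080g0160 and Nitab4.5_0000057g0080, all given above. No pairing of libraries by replicate number was seen. Deviations of same-numbered libraries correlated over 0.1 for 17 of 135 pairs, with a median of 0.018, against -0.009 for other numbers. Of 30 libraries, 12 were most like their own number. Such weak correlations cannot show that same-numbered libraries were handled apart. With the replicate block, 15 members were lower at 4 h than at 2 h in M28 and 17 in K326, and no count moved by over 1.5 times. Leaving out M28 8 h replicate 3, the shallow library, was added after the data were seen and gave 17 and 18. Absolute depth is unknown, so no counting error can be set beside the 23 members under 5 FPKM at 0 h.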
